A study of Saccharomyces cerevisiae with 41 samples.

Results

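The earliest transcript response of wild-type budding yeast to ultraviolet light was taken from 4 of 41 arrays: 2 of WT cells 15 min after irradiation and 2 of unirradiated WT cells. Each array was hybridised with cRNA made from total RNA, and each value is a log2 signal. The change of a gene is its mean at 15 min minus its mean without irradiation, so a change of 1 is 2-fold. In all, 5380 probe sets for 5337 genes were tested, each gene was also checked in replicate 1 and in replicate 2, and the 2 WT arrays at 30 min were used to ask whether a change persisted. The strain is YPH499, a haploid, and every culture had been grown in the glucose-rich medium YPD at 30 °C to an OD600 of 1.0. Irradiated cells received 100 J/m2 of UV-C while in water and then recovered in fresh YPD for 15 or 30 min, whereas unirradiated cells were mock treated. No mock-treated arrays at 15 min were used here, so passage through water into fresh medium and irradiation cannot be told apart in these changes. Arrays of a strain lacking SNF1, which encodes the yeast AMP-activated kinase, were compared at the same time (2 unirradiated and 2 at 15 min), as were those of a strain lacking MIG3, which encodes a DNA-binding repressor related to Mig1 (2 unirradiated and 1 at 15 min).

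UV-C makes pyrimidine dimers in DNA, which block polymerases. Nucleotide excision repair removes them, and stalled forks and processed lesions activate the checkpoint kinases Mec1, Rad53 and Dun1. Dun1 relieves the Crt1 repressor of the ribonucleotide reductase genes, the classic damage-inducible transcripts of yeast, and checkpoint-arrested cells hold back mitosis. The Snf1 kinase and the Mig repressors govern genes that glucose represses, and moving cells between media is itself known to alter such genes.

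The arrays carried most marks of the labelled cells, with an exception among the MATalpha genes. The a-factor genes MFA1 and MFA2 and the pheromone receptor gene STE2, all specific to MATa cells, lay between 13.53 and 14.34 on the unirradiated and 15 min WT arrays. The alpha-factor genes MF(ALPHA)1 and MF(ALPHA)2 lay between 1.98 and 2.13, at or below the arrays' background level of 2.12 to 2.19. The other MATalpha markers, STE3 and SAG1, were not both at background. The summed signal of all 4 MATalpha genes was 8.63 and 8.22 unirradiated, 8.94 and 8.37 at 15 min and 9.67 and 9.51 at 30 min. That of the 7 MATa genes was 16.12 and 16.04, then 15.94 and 15.83, then 15.79 and 15.81. Each WT array at 0, 15 and 30 min correlated best with its own replicate. The median tested signal was 10.65 to 10.77 on these 6 arrays, and the 3′ minus 5′ signal of ACT1, a check of RNA quality, was 0.11 to 0.23. For SRB4, another such check, the gap between the ends was 2.83 and 2.98 without irradiation and 3.51 and 3.72 at 15 min, and its part in the results was not tested. The 18S ribosomal RNA control read 9.01 in unirradiated replicate 2 against 11.43 to 12.98 on the other 5 arrays. SNF1 read 2.32 to 2.74 on the 4 snf1 arrays and MIG3 1.97 on the 3 mig3 arrays, against 11.59 to 11.92 and 9.02 to 9.78 on the WT arrays at 0 and 15 min.

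At 15 min after UV a limited set of transcripts had moved, and most of those moved down. At an adjusted p under 0.05 (limma, Benjamini-Hochberg adjustment over all tested probe sets), 71 probe sets were called higher (1.32% of those tested) and 247 lower (4.59%), 318 in all (5.91%). The changes ran from -4.82 to 3.74, and 85.7% of all tested probe sets lay within 0.5 of no change. All 318 had the same sign in replicate 1 and replicate 2, against 81.8% of all tested probe sets, and in all 318 the 15 min arrays did not overlap the unirradiated ones, against 50.9%. The calling rule favours both features. Without regard to the test, 58 probe sets were over 2-fold higher (1.08%) and 107 over 2-fold lower (1.99%), and of the 318 called, 38 were over 2-fold higher and 69 over 2-fold lower. The excess of falls over rises depended on the scaling between arrays: 80 rises and 77 falls were called after quantile normalization, against 94 and 149 once every array was centred on its median. The median change of all genes was -0.05 as deposited, 0.01 after quantile normalization and 0.04 after centring. The count also fell when any 1 of the 4 arrays was left out, a fit that leaves 1 array in a group and is less precise. It was 190 or 93 without unirradiated replicate 1 or 2, and 82 or 149 without 15 min replicate 1 or 2. The calls on 60 of the 318 genes, 14 higher and 46 lower, held without each of these 4 arrays in turn. Many genes described below are not among these 60, and for most of these the arrays without which the call ended are named.

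**Figure D1:**
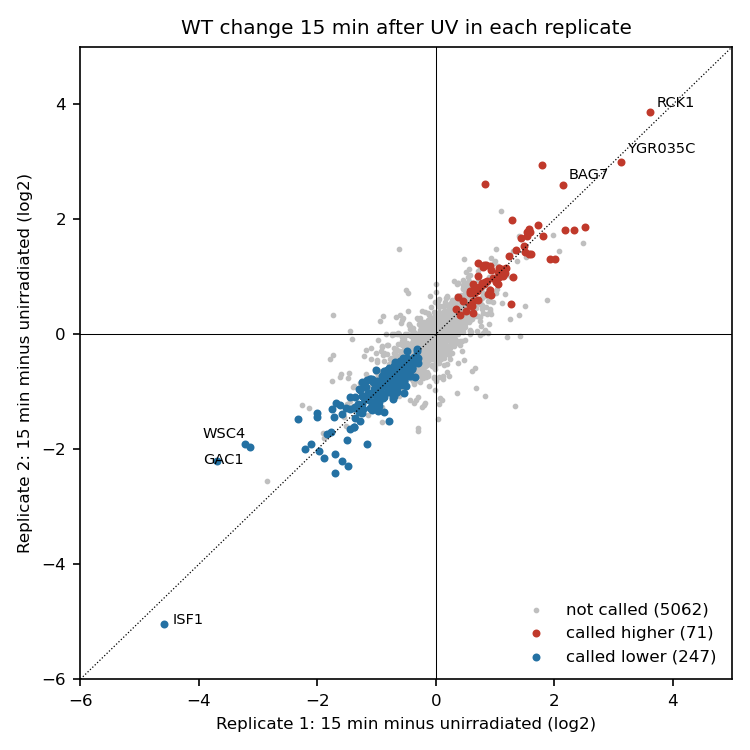
Change at 15 min after UV in WT for every tested probe set, in log2 units, with replicate 1 (15 min minus unirradiated) on the horizontal axis and replicate 2 on the vertical axis. Red points are the 71 called higher, blue points the 247 called lower and grey points those not called. The called points lie in the quadrants where both replicates moved the same way, and the dotted line marks equal change.

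The largest fall was in ISF1, a glucose-controlled gene whose extra copies are known to rescue respiratory growth of hap mutants. ISF1 read 10.17 and 9.20 on the unirradiated arrays, 5.58 and 4.15 at 15 min and 5.26 and 3.98 at 30 min. The groups at 15 and 30 min lay wholly below the unirradiated arrays. The fall was 4.82 ± 0.61 (SE), 28.2-fold, with an adjusted p of 1.11e-04 in limma. The call was retained without each of the 4 arrays and ended when only those 4 were fitted (adjusted p = 0.051). Other genes tied to glucose signalling and respiration fell with it. MTH1, a repressor subunit for hexose transporter genes when glucose is absent, went from 9.97 and 9.77 to 7.86 and 7.87, a fall of 2.01 ± 0.40 (adjusted p = 0.00328). HAP4, which encodes the activating subunit of the respiratory gene regulator, went from 12.50 and 12.42 to 11.14 and 11.16, a fall of 1.32 ± 0.27 (adjusted p = 0.00443), and its call ended without 15 min replicate 1 (adjusted p = 0.0523). SNF3, which encodes the sensor of low glucose, fell by 1.07 ± 0.24, a call that ended without unirradiated replicate 1 (adjusted p = 0.0987) or 15 min replicate 2 (adjusted p = 0.139).

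The carbon lists held 7 calls, all lower, where 4.59% of all tested probe sets were called lower. Among hexose transport and glucose sensing genes, 3 of 17 were called lower and none higher, and the list's median change was -0.15. Besides MTH1 and SNF3 this was STD1, a relative of MTH1, at -0.58, which was named after its value was seen. Its call ended without 15 min replicate 1 (adjusted p = 0.0636). Among glucose-repressed carbon genes, 3 of 36 were called lower (ISF1, HAP4 and RGI1) with a median of -0.02. RGI1, a respiratory growth gene, went from 14.11 and 13.94 to 12.14 and 11.91, a change of -2.00 whose call (adjusted p = 0.0352) ended without any of the 4 arrays (adjusted p = 0.16 to 0.189). Glycogen and trehalose genes had 1 of 20 called. That gene was GAC1, which encodes the Glc7 phosphatase subunit that activates glycogen synthase. GAC1 read 7.54 and 6.19 unirradiated, 4.31 and 4.28 at 15 min and 2.06 and 2.44 at 30 min, where it met the background, so the 30 min value is a limit. At 15 min it fell by 2.57 ± 0.47 (adjusted p = 0.00173), and the call ended when only the 4 arrays were fitted (adjusted p = 0.081).

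The Snf1 and Mig branch itself held a single call. Of 18 tested genes for Snf1, its partners, activators and repressors, 1 was called, against 5.91% of all tested probe sets. In 11 of the 18 the 15 min arrays lay wholly below the unirradiated ones, against 33.4% of all tested probe sets. TOS3, which encodes a kinase that activates Snf1, went from 8.55 and 8.27 to 9.35 and 9.16, a rise of 0.84 ± 0.17 (adjusted p = 0.00328). Its call ended without unirradiated replicate 2 (adjusted p = 0.0798) or 15 min replicate 1 (adjusted p = 0.0708), and at 30 min TOS3 stood at 9.51 and 9.32. SNF1 was 11.92 and 11.76 without irradiation and 11.73 and 11.59 at 15 min, a change of -0.18 ± 0.12 (adjusted p = 0.552). MIG3 was 9.78 and 9.50, then 9.31 and 9.02, a change of -0.47 ± 0.17 (adjusted p = 0.102). MIG1, the main glucose repressor, had a change of -0.08 ± 0.30 (adjusted p = 0.98), with 11.37 and 11.17 unirradiated and 11.17 and 11.21 at 15 min. The related repressor gene NRG1 read 10.18 and 10.02, then 10.62 and 10.63 at 15 min, and 9.72 and 9.21 at 30 min, with neither time called.

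The largest rises were in RCK1 and YGR035C. RCK1, which encodes a protein kinase of the oxidative stress response, read 5.06 and 4.30 unirradiated, 8.68 and 8.16 at 15 min and 7.98 and 7.16 at 30 min. All 4 irradiated arrays lay well above the unirradiated pair, and the rise at 15 min was 3.74 ± 0.85 (adjusted p = 0.00907). The call ended without unirradiated replicate 2 (adjusted p = 0.13) or 15 min replicate 1 (adjusted p = 0.112). YGR035C encodes a protein of unknown function and is known to be activated by the drug-response factors Yrm1 and Yrr1. It went from 9.21 and 9.41 to 12.34 and 12.42 and then to 11.17 and 11.07, a rise at 15 min of 3.07 ± 0.46 (adjusted p = 2.85e-04), or 8.39-fold. PCL1, a G1 cyclin of the Pho85 kinase, went from 6.89 and 7.53 to 9.22 and 9.35 and stayed at 9.16 and 9.34 at 30 min, a rise at 15 min of 2.08 ± 0.38 (adjusted p = 0.0018).

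Other genes among the 15 largest rises were MAL33, ROD1, RTS3 and YEL073C. MAL33, an activator of maltose genes, went from 8.03 and 7.91 to 10.21 and 9.73, a rise of 2.00 ± 0.36 (adjusted p = 0.00165). ROD1, which encodes an arrestin that directs nutrient transporters to ubiquitination, went from 6.58 and 6.88 to 8.60 and 8.19, a rise of 1.67 ± 0.27 (adjusted p = 6.6e-04). RTS3, a putative phosphatase subunit gene, went from 10.96 and 10.77 to 12.67 and 12.66, a rise of 1.81 ± 0.34 (adjusted p = 0.00245). YEL073C, a gene of unknown function, rose by 1.76 ± 0.23 (adjusted p = 1.11e-04). These 4 calls held without each array and under quantile normalization. PHO89, a sodium-coupled phosphate transporter gene, went from 11.93 and 11.35 to 13.52 and 13.14 and on to 14.10 and 14.05. Its call at 15 min (change 1.69 ± 0.39, adjusted p = 0.00968) ended without unirradiated replicate 2 (adjusted p = 0.166) or 15 min replicate 1 (adjusted p = 0.138), and it was the only 1 of 20 phosphate regulon genes called. BOP2, of unknown function, had a change of 2.20 ± 0.50 and JID1, a probable Hsp40 co-chaperone gene, 1.62 ± 0.32. The BOP2 call ended without unirradiated replicate 1 (adjusted p = 0.0868), 15 min replicate 1 (adjusted p = 0.106) or 15 min replicate 2 (adjusted p = 0.05), and the JID1 call without unirradiated replicate 2 (adjusted p = 0.0589).

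**Figure D2:**
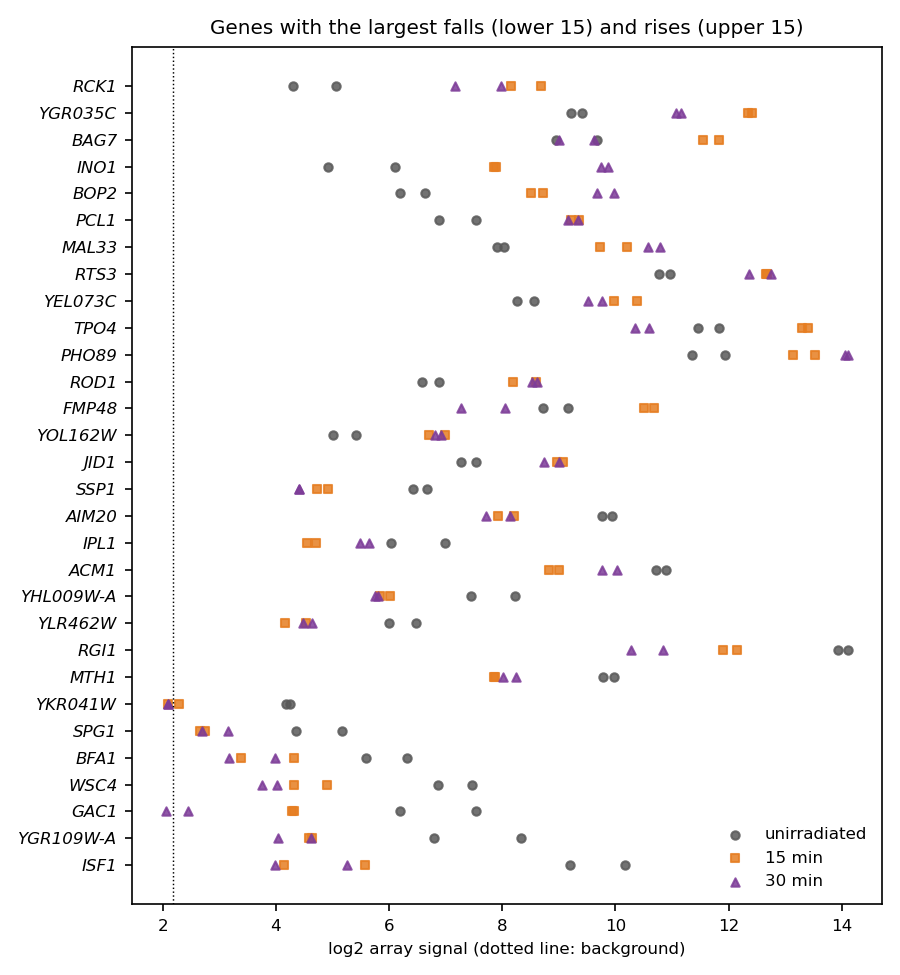
Log2 array signal (horizontal axis) of the 15 genes with the largest rises and the 15 with the largest falls among those called in WT at 15 min. Each gene has 2 unirradiated arrays (grey circles), 2 at 15 min (orange squares) and 2 at 30 min (purple triangles), and the dotted line is the upper background level of 2.19. BAG7, TPO4 and FMP48 are near or below their unirradiated arrays again at 30 min, and YKR041W reached the background at 15 min.

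The list of multidrug and polyamine transport held the most called rises, although 1 of these, YGR035C, encodes a protein of unknown function. Of the list's 24 tested genes, 3 were called higher and 1 lower, with a median change of 0.13. Of all tested probe sets 1.32% were called higher and 4.59% lower. Besides YGR035C, those called higher were TPO4, a polyamine exporter gene, and QDR2, a drug transporter gene with a change of 0.84. QDR2 was named after its value was seen. The QDR2 call ended without any of the 4 arrays (adjusted p = 0.0572 to 0.379). TPO4 read 11.82 and 11.46 unirradiated and 13.40 and 13.30 at 15 min, a rise of 1.71 ± 0.22 (adjusted p = 1.11e-04), and both 15 min arrays stood above both others. The gene called lower was PDR12, which encodes the exporter of weak organic acids. It went from 12.74 and 12.51 to 11.65 and 11.32, a fall of 1.14 ± 0.21 (adjusted p = 0.00176), and was back at 12.81 and 12.53 by 30 min. Without each of the 4 arrays in turn, 3 genes of the list were called.

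Cell wall and Rho1 genes moved in both directions. Of 29 genes of wall sensors and the Rho1 to Slt2 pathway, 2 were called higher and 2 lower (1.32% and 4.59% of all tested probe sets), with a median of -0.04. BAG7, which encodes a GTPase-activating protein for Rho1, read 9.68 and 8.96 unirradiated and 11.82 and 11.55 at 15 min, a rise of 2.37 ± 0.39 (adjusted p = 7.18e-04). WSC4, a gene of the wall sensor family, read 7.46 and 6.87, then 4.32 and 4.91, a fall of 2.55 ± 0.43 (adjusted p = 7.74e-04). The other calls, WSC3 at 0.86 ± 0.22 and the Rho1 regulator gene LRG1 at -0.88 ± 0.24, ended without 15 min replicate 2 (adjusted p = 0.0526 and 0.155), 15 min replicate 1 (adjusted p = 0.259 and 0.155) or unirradiated replicate 2 (adjusted p = 0.397 and 0.162), and that of LRG1 also without unirradiated replicate 1 (adjusted p = 0.131).

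Among the lists, that of mitosis held the most calls. Of 29 tested genes of the CLB2 cluster and mitotic exit, 8 were called lower and none higher, where 4.59% of all tested probe sets were called lower, with a median change of -0.49 and a range of -1.10 to -0.01. In 27 of the 29 the 15 min arrays lay wholly below the unirradiated ones, against 33.4% of all tested probe sets. CLB2, the main mitotic cyclin gene, went from 9.88 and 9.94 to 8.74 and 8.92 and then to 9.07 and 9.06, a fall at 15 min of 1.08 ± 0.20 (adjusted p = 0.0018). CDC5, the polo kinase gene, went from 11.49 and 11.51 to 10.55 and 10.55 and then to 10.44 and 10.44, a fall at 15 min of 0.95 ± 0.13 (adjusted p = 1.11e-04). In both genes the irradiated arrays lay below the unirradiated ones at each time. CDC14, which encodes the phosphatase of mitotic exit, fell by 0.87 ± 0.13 (adjusted p = 2.51e-04). The calls on these 3 genes held without each array. The others were the spindle midzone gene ASE1, the G2/M activator gene NDD1, the mitotic exit GTPase gene TEM1, the anaphase activator gene CDC20 and the cyclin gene CLB4, of which CDC14, TEM1, CDC20 and CLB4 lie outside the naming rule and were chosen after their values were seen. The number called in the list was 6 or 3 without unirradiated replicate 1 or 2, 3 or 5 without 15 min replicate 1 or 2, and 5 after quantile normalization, where the median was -0.41. In bulk cultures fewer cells in mitosis and less mitotic RNA per cell cannot be told apart.

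ACM1, IPL1 and BFA1, which act in mitosis but are not in that list, were among the 15 genes with the largest falls. ACM1, which encodes an inhibitor of the Cdh1 form of the anaphase-promoting complex, went from 10.71 and 10.90 to 9.01 and 8.82 and recovered part of the way to 9.76 and 10.03 at 30 min. The fall at 15 min was 1.89 ± 0.26 (adjusted p = 1.11e-04). IPL1, the Aurora kinase gene, went from 6.04 and 6.99 to 4.55 and 4.70, a fall of 1.89 ± 0.34 (adjusted p = 0.0016) whose call ended without unirradiated replicate 2 (adjusted p = 0.0627). BFA1, part of the GTPase-activating complex that restrains Tem1, went from 5.59 and 6.32 to 3.38 and 4.32, a change of -2.10 ± 0.45 (adjusted p = 0.00597) whose call ended without unirradiated replicate 2 (adjusted p = 0.132) or 15 min replicate 1 (adjusted p = 0.155). KAR3, a minus-end kinesin gene of the spindle and of nuclear fusion named from the pheromone list, fell by 1.20 ± 0.18 (adjusted p = 3.54e-04).

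G1 regulators split. Of 21 G1 cyclin and G1/S regulator genes, 2 were called higher (PCL1 and YHP1) and 5 lower (PCL2, CLB5, FAR1, SWI6 and TOS4), against 1.32% and 4.59% of all tested probe sets, with a median of -0.43. After quantile normalization PCL1 and YHP1 were still called higher but only CLB5 lower, and the median was -0.28. PCL2, a close partner of PCL1 in the Pho85 cyclin family, moved the opposite way, from 8.93 and 8.72 to 7.20 and 7.28. CLB5, the S-phase cyclin gene, went from 9.54 and 9.46 to 8.30 and 8.39 and partly back to 8.94 and 9.03 at 30 min, and its fall at 15 min was 1.15 ± 0.18 (adjusted p = 4.44e-04). FAR1, a cyclin-dependent kinase inhibitor gene, changed by -0.78 ± 0.16, and SWI6, which encodes a shared subunit of the G1/S activators SBF and MBF, by -0.70 ± 0.15. The G1 cyclin genes CLN1, CLN2 and CLN3 had changes of 0.48 ± 0.20, -0.67 ± 0.35 and 0.64 ± 0.22 and were not called (adjusted p = 0.198, 0.362 and 0.102), although in each the groups did not overlap. The calls on PCL1 and CLB5 held without each array. The list's count was 4 or 3 without unirradiated replicate 1 or 2, and 2 or 5 without 15 min replicate 1 or 2. Each other call was lost without 15 min replicate 1, with adjusted p values of 0.083 for PCL2, 0.0649 for FAR1 and SWI6, 0.271 for TOS4 and 0.204 for YHP1. Calls were also lost without unirradiated replicate 1 for PCL2, FAR1 and YHP1 (adjusted p = 0.0676, 0.0655 and 0.144), without unirradiated replicate 2 for PCL2, SWI6, TOS4 and YHP1 (adjusted p = 0.0522, 0.125, 0.367 and 0.116), and without 15 min replicate 2 for TOS4 and YHP1 (adjusted p = 0.0586 and 0.0841).

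The replication lists held 5 calls, all lower, where 4.59% of all tested probe sets were called lower. Of 30 G1/S-expressed replication and cohesion genes 3 were called lower (median -0.29), and of 16 prereplication genes 2 (median -0.13). These were CDC45, RFC5 and DPB2 in the former and MCM2 and the kinase gene CDC7 in the latter, RFC5 and DPB2 being named after their values were seen. The G1/S count was 1 without unirradiated replicate 1 or 15 min replicate 2, and 0 without either other array and after quantile normalization. The calls on RFC5 and CDC7 ended without any of the 4 arrays (adjusted p = 0.102 to 0.229 and 0.102 to 0.315). MCM2, a subunit of the replicative helicase, went from 10.98 and 10.93 to 10.14 and 10.13, a fall of 0.82 ± 0.16 (adjusted p = 0.00238) that held without each array. CDC45, which encodes a helicase cofactor, went from 9.35 and 9.60 to 8.67 and 8.71 and was at 9.61 and 9.71 by 30 min. Its call at 15 min (change -0.78 ± 0.17, adjusted p = 0.00645) ended without unirradiated replicate 2 (adjusted p = 0.132) or 15 min replicate 1 (adjusted p = 0.0748). None of the 9 tested histone genes was called (median -0.20), although 6 had 15 min arrays below both unirradiated ones, against 33.4% of all tested probe sets. HTB2, a histone H2B gene, went from 14.21 and 14.23 to 13.80 and 13.81 and then to 12.58 and 12.69, a change at 15 min of -0.42 ± 0.34 (adjusted p = 0.636). By 30 min 8 of the 9 were called lower, against 12.6% of all tested probe sets, with a median of -1.32.

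The ribonucleotide reductase genes had no call at 15 min. None of 9 genes of ribonucleotide reductase, its inhibitors and the Crt1 branch was called, against 5.91% of all tested probe sets. The changes of the 9 genes ran from -0.54 to 0.12. RNR3, the damage-induced large subunit gene, read 9.03 and 8.57 unirradiated, 9.28 and 8.48 at 15 min and 10.98 and 10.63 at 30 min. HUG1, which encodes an inhibitor of the enzyme, read 6.54 and 6.67, then 6.54 and 6.17, then 8.99 and 8.68. For RNR3 the 15 min arrays spanned the unirradiated pair and for HUG1 the lower of them lay below it, while both 30 min arrays of each gene lay above. The kinase gene DUN1 went from 9.75 and 9.76 down to 9.35 and 9.41 and then up to 10.68 and 10.53, and the Crt1 repressor gene RFX1 from 9.42 and 9.42 to 9.60 and 9.35 and then to 10.75 and 10.43. The 15 min changes were 0.08 ± 0.38 for RNR3, -0.25 ± 0.44 for HUG1, -0.37 ± 0.14 for DUN1 and 0.05 ± 0.20 for RFX1 (adjusted p = 0.986, 0.924, 0.145 and 0.979 in limma). Measured directly between 15 and 30 min, 7 of the 9 genes were called higher, against 7.25% of all tested probe sets, with a median step of 1.12. PLM2, a damage-responsive forkhead gene, likewise read 6.36 and 6.47, then 5.94 and 5.77, then 9.06 and 8.68.

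The checkpoint and repair lists held 4 calls at 15 min, all lower. Of 16 checkpoint genes 2 were called lower, of 22 nucleotide excision repair genes 1 and of 28 other repair genes 1, with none higher and medians of -0.33, -0.20 and -0.11. Of all tested probe sets 4.59% were called lower. RAD53, the checkpoint kinase gene, went from 8.10 and 8.71 to 7.44 and 7.72 and was back at 8.37 and 8.46 by 30 min, a change at 15 min of -0.82 ± 0.22 (adjusted p = 0.0274). The securin gene PDS1 changed by -0.69 ± 0.16, the damage-inducible nuclease gene DIN7 by -0.72 ± 0.18 and RAD34, a relative of RAD4 in repair of ribosomal DNA, by -1.16 ± 0.33. After quantile normalization these lists held no call. The adjusted p values in limma were then 0.2 for RAD53, 0.0601 for PDS1, 0.108 for DIN7 and 0.217 for RAD34. These 4 calls each ended without unirradiated replicate 2, where the changes were -0.52, -0.59, -0.55 and -1.08. They also ended without 15 min replicate 1, where the changes were -0.68, -0.57, -0.55 and -1.26. Such a fit leaves 1 array in a group and is less precise, so a call can end with little change in size. RAD53 and RAD34 were also lost without 15 min replicate 2 (adjusted p = 0.0591 and 0.212), and RAD34 without unirradiated replicate 1 (adjusted p = 0.113).

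Several large lists held no call at 15 min, when 5.91% of all tested probe sets were called. No gene was called among 37 of general stress and heat shock, 21 of oxidative stress, 77 of ribosome biogenesis, 34 of the proteasome, 31 of methionine and sulfur assimilation, 37 of Gcn4-activated amino acid synthesis, 25 of ergosterol synthesis and 20 of purine synthesis. Calls do not show that these genes stayed still: in 14 of the 31 sulfur genes the 15 min arrays lay wholly above the unirradiated ones, against 17.6% of all tested probe sets, and in 18 of the 37 stress genes wholly below, against 33.4%. Of 127 cytosolic ribosomal protein genes 1 was called (RPS28B, 0.46 ± 0.12, adjusted p = 0.0199), with a list median of 0.00, and that call ended without any of the 4 arrays (adjusted p = 0.0912 to 0.152). The sulfur and Gcn4 lists had 12 of 31 and 19 of 37 members called higher at 30 min, when 12.6% of all tested probe sets were. MET28, an activator of sulfur genes, read 3.78 and 4.02, then 6.26 and 5.61, then 8.71 and 8.82. Its 15 min change of 2.04 ± 0.68 was not called (adjusted p = 0.0809). HSP30, a membrane heat shock gene, read 11.43 and 10.86, then 8.58 and 8.30, and was not called either (change -2.71 ± 0.83, adjusted p = 0.055). Of 66 mitochondrial ribosomal protein genes, 6 were called lower at 15 min (median -0.26) and 27 at 30 min (median -0.47). The shares of all tested probe sets called lower were 4.59% and 12.6%. The 6 stayed at 6 without unirradiated replicate 1 and became 0 without each of the other 3 arrays, and 1 was called after quantile normalization.

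Other lists held few calls, where 1.32% of all tested probe sets were called higher and 4.59% lower. Such single calls are not read as results about the lists. None of 8 meiosis genes or 4 MATalpha genes was called. The RNA polymerase I and III list had 1 of 27 called lower (RPO31), the respiratory chain list 1 of 35 (CYC1), the filamentous growth list 1 of 15 (TEC1, named after its value was seen) and the haploid gene list 1 of 7 (HO). The pheromone list had 2 of 20 called lower (KAR3 and FAR1), and the iron list had 1 of 24 called higher (FRE2) and 2 lower (CCC2 and MRS4). The calls on RPO31, CYC1, TEC1, HO and FRE2 each ended without any of the 4 arrays. Those on CCC2 and MRS4 ended without unirradiated replicate 1 (adjusted p = 0.241 and 0.235), 15 min replicate 1 (adjusted p = 0.104 and 0.0688) or 15 min replicate 2 (adjusted p = 0.18 and 0.167).

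**Figure D3:**
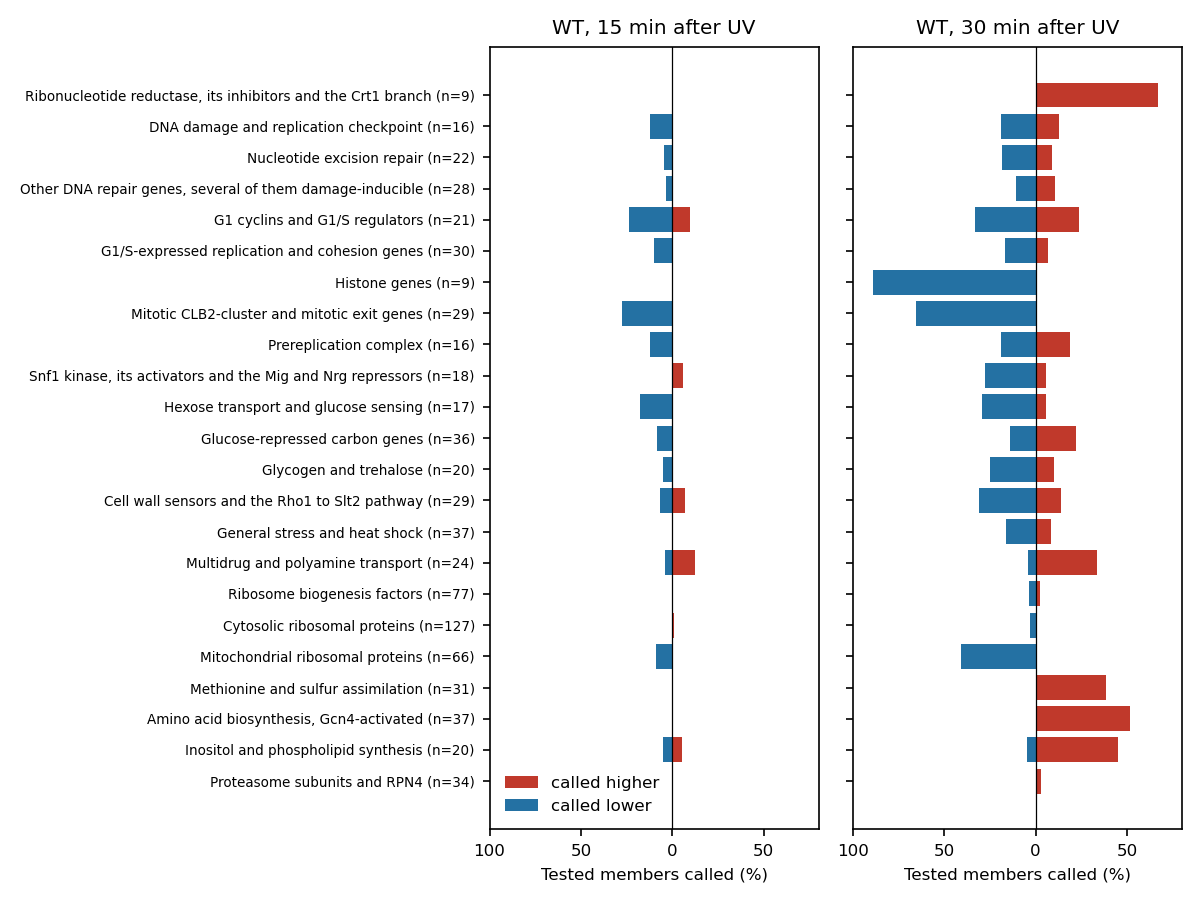
Percentage of the tested members of 23 gene lists called higher (red, right of 0) and lower (blue, left of 0) in WT at 15 min (left panel) and 30 min (right panel) after UV, with the number tested after each name. Of all tested probe sets 1.32% were called higher and 4.59% lower at 15 min, and 12.6% each way at 30 min. The ribonucleotide reductase, histone, sulfur and Gcn4 lists have no bar at 15 min and long bars at 30 min, while the mitotic list has a bar at both times.

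Phospholipid synthesis had a pair of opposite calls at 15 min. INO1, the inositol-phosphate synthase gene, read 6.10 and 4.92, then 7.89 and 7.86, then 9.75 and 9.87, a change at 15 min of 2.37 ± 0.66 (adjusted p = 0.033). INO2, which encodes its activator, went the other way, from 11.26 and 11.14 to 10.05 and 10.27 and then to 8.66 and 9.04, a change at 15 min of -1.04 ± 0.25 (adjusted p = 0.0143). In neither gene did the 3 groups overlap. Without unirradiated replicate 2 or 15 min replicate 1 both calls ended (adjusted p = 0.377 and 0.197 for INO1, 0.0798 and 0.171 for INO2), as did that of INO1 without 15 min replicate 2 (adjusted p = 0.148) and that of INO2 without unirradiated replicate 1 (adjusted p = 0.0968). The other 18 genes of the list were not called at 15 min, when 5.91% of all tested probe sets were called. In 9 of all 20 genes the 15 min arrays lay wholly above the unirradiated ones, against 17.6% of all tested probe sets. In 2 they lay wholly below, against 33.4%. After quantile normalization no gene of the list was called.

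Most 15 min changes were still present at 30 min. Of the 318 probe sets, 213 (67.0%) were called in the same direction at 30 min, 54 of the 71 higher (76.1%) and 159 of the 247 lower (64.4%). At 30 min 25.1% of all tested probe sets were called, and the 213 were 15.7% of those calls. The comparisons share the unirradiated arrays, so an error there enters both. The median change of the higher genes was 1.02 at 15 min and 0.99 at 30 min, and that of the lower genes -0.77 and -0.60. A further 71 kept their sign without a call, 28 had the opposite sign without a call and 6 were called the opposite way. The count of 213 became 126 or 61 without unirradiated replicate 1 or 2 and 57 or 104 without 15 min replicate 1 or 2.

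The step from 15 to 30 min was tested directly, and 552 probe sets were called (10.3% of those tested), 390 higher (7.25%) and 162 lower (3.01%). The excess of rises depended on the scaling: 224 were higher and 178 lower after quantile normalization, and 287 and 202 after median centring. Of the 318, 62 moved back towards the unirradiated level, 14 of the higher and 48 of the lower, and 15 moved further away, while 241 had no called step. Selection at 15 min favours a return, since the same arrays enter both contrasts. FMP48, a putative mitochondrial kinase gene, read 9.16 and 8.73 unirradiated, 10.69 and 10.50 at 15 min and 8.05 and 7.27 at 30 min. TPO4 reached 10.59 and 10.34 at 30 min, below its unirradiated 11.82 and 11.46. Both genes thus stood above the unirradiated arrays at 15 min and below them at 30 min. Their steps fell by 2.93 ± 0.35 and by 2.89 ± 0.22 on the log2 scale (adjusted p = 9.89e-06 and 1.69e-08). The rise of FMP48 (1.65 ± 0.35) lost its call without unirradiated replicate 2 (adjusted p = 0.0986) or 15 min replicate 1 (adjusted p = 0.0727), and its fall below the start at 30 min without unirradiated replicate 1 (adjusted p = 0.0849) or 30 min replicate 2 (adjusted p = 0.148).

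BAG7 returned to its starting level. It read 9.63 and 9.01 at 30 min against 9.68 and 8.96 without irradiation, and its step from 15 min fell by 2.37 ± 0.39 (adjusted p = 3.95e-04). Among the genes that fell and came back, APJ1, a J-domain chaperone gene, read 8.68 and 8.69, then 7.40 and 7.19, then 9.43 and 9.02, with a step of 1.92 ± 0.26 (adjusted p = 3.52e-05). RIM9, which encodes a membrane protein of the alkaline pH pathway, read 7.56 and 7.54, then 5.94 and 6.32, then 7.86 and 7.68. SPH1, a bud site and polarity gene, read 7.38 and 7.74, then 6.61 and 7.01, then 8.44 and 8.40, and so ended above its start. The 15 min fall of APJ1 (1.39 ± 0.26) held without each array. That of RIM9 (1.42 ± 0.28) ended without 15 min replicate 1 (adjusted p = 0.0763), and that of SPH1 (0.75 ± 0.19) without unirradiated replicate 2 (adjusted p = 0.281) or 15 min replicate 1 (adjusted p = 0.328). The other genes called the opposite way at 30 min, DPB2, a subunit gene of DNA polymerase epsilon, POM34, a nuclear pore gene, and ESC8, a silencing gene, were named after their values were seen. Their changes were -0.40, -0.75 and -0.56 at 15 min and 0.69, 0.48 and 0.47 at 30 min. The 15 min call on POM34 held without each array, while those on DPB2 and ESC8 ended without unirradiated replicate 2 (adjusted p = 0.34 and 0.158) or 15 min replicate 1 (adjusted p = 0.165 and 0.138), and that on DPB2 also without unirradiated replicate 1 (adjusted p = 0.0732) or 15 min replicate 2 (adjusted p = 0.214).

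Genes that went on moving included YPR015C, a gene for a putative zinc finger protein. It read 4.27 and 3.76, then 6.20 and 5.06, then 8.90 and 8.33, so that each later pair lay above the earlier ones. Its step from 15 to 30 min was 2.98 ± 0.39 (adjusted p = 2.47e-05), while the call at 15 min (1.62 ± 0.39) ended without unirradiated replicate 2 (adjusted p = 0.188) or 15 min replicate 1 (adjusted p = 0.328). GAC1 and INO2 fell further by 2.05 ± 0.47 and 1.31 ± 0.25 (adjusted p = 0.00613 and 0.00161). The midzone gene ASE1, the ribosomal protein gene coactivator IFH1 and the glutamate synthase gene GLT1 also fell further, by 1.08 ± 0.28, 1.01 ± 0.26 and 0.85 ± 0.18. The 15 min calls on these 3 genes each ended without any of the 4 arrays. The further step of GAC1 ended without 15 min replicate 2 (adjusted p = 0.0546) or 30 min replicate 1 (adjusted p = 0.0864), and that of GLT1 without 15 min replicate 1 (adjusted p = 0.0541). That of IFH1 ended without 15 min replicate 2, 30 min replicate 1 or 30 min replicate 2 (adjusted p = 0.147, 0.144 and 0.0545), and that of ASE1 without 15 min replicate 1, 15 min replicate 2 or 30 min replicate 1 (adjusted p = 0.0783, 0.104 and 0.242).

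**Figure D4:**
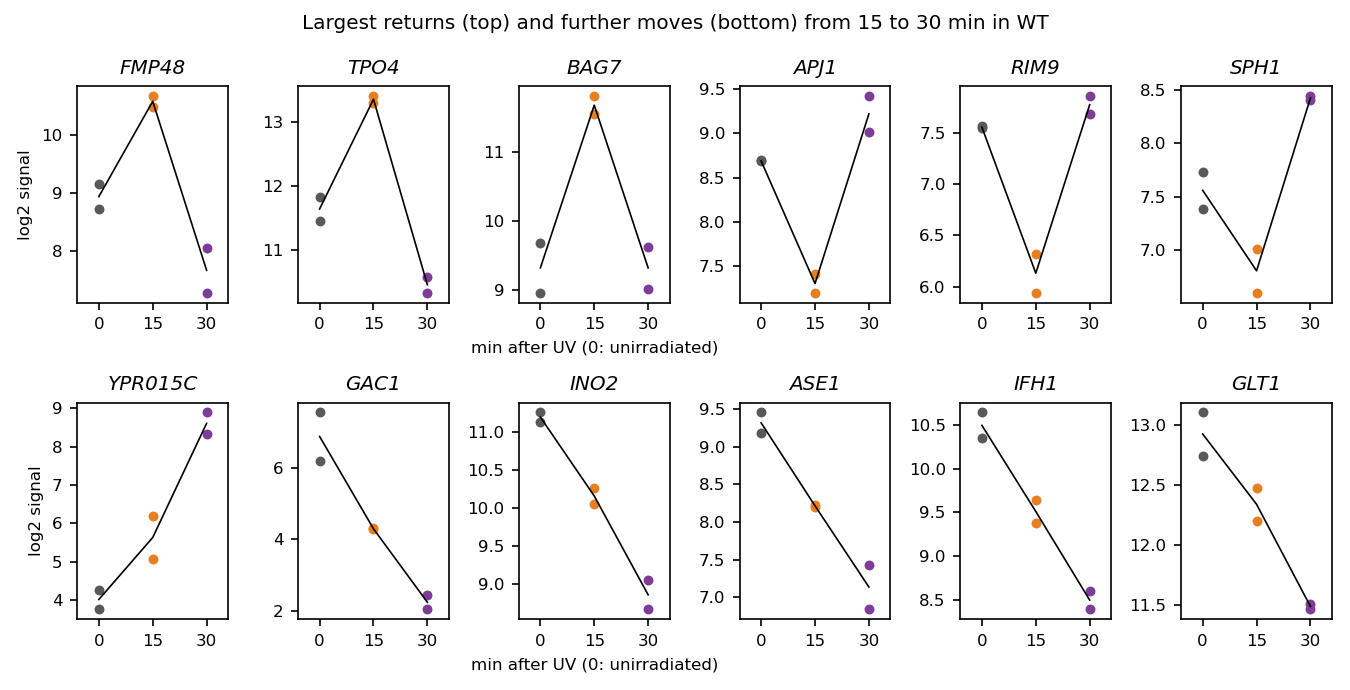
Log2 signal of the 6 genes with the largest return (top row) and the 6 with the largest further move (bottom row) between 15 and 30 min among the genes called at 15 min in WT. Points are single arrays at 0 (unirradiated), 15 and 30 min, lines join the means, and the vertical scale differs between panels. FMP48, TPO4 and BAG7 peak at 15 min, APJ1, RIM9 and SPH1 dip at 15 min, and the lower row moves 1 way throughout.

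Some of the large falls concern repeated or dim sequences. YGR109W-A, which encodes the Gag protein of a Ty3 element, went from 8.33 and 6.79 to 4.63 and 4.58, and YHL009W-A, of a Ty4 element, from 7.44 and 8.22 to 5.85 and 6.02. Such elements have near-identical copies whose transcripts the probes may share, so the values are uncertain. The same holds for YLR462W, an open reading frame near a chromosome end, which changed by -1.90 ± 0.42. The call on YHL009W-A ended without unirradiated replicate 2, 15 min replicate 1 or 15 min replicate 2 (adjusted p = 0.267, 0.17 and 0.0841), and that on YLR462W without unirradiated replicate 1 or 15 min replicate 1 (adjusted p = 0.0839 and 0.115). YKR041W, of unknown function, went from 4.18 and 4.26 to a mean of 2.19 ± 0.13 (SD, n = 2), the background, so its fall of 2.03 ± 0.18 (adjusted p = 5.6e-07) is a limit. The mating genes STE6, the a-factor exporter (-0.82 ± 0.17, adjusted p = 0.00426), and BAR1, the alpha-factor protease (-0.60 ± 0.14, adjusted p = 0.0127), were called lower among 7 MATa genes. Of all tested probe sets 4.59% were called lower. The BAR1 call ended without unirradiated replicate 1 (adjusted p = 0.11), unirradiated replicate 2 (adjusted p = 0.0522) or 15 min replicate 2 (adjusted p = 0.151).

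Genes called lower were longer than average. Their median coding length, introns included, was 1557 bases, against 1245 for all tested genes and 1185 for those called higher. From the shortest to the longest quartile of tested genes, the share called lower was 2.59%, 4.24%, 4.71% and 6.85%, and the share called higher 1.48%, 1.26%, 1.57% and 0.967%. The median change in the longest quartile, of 1911 to 14733 bases, was -0.14, and in the shortest, of 78 to 771 bases, 0.00. After quantile normalization the numbers called lower in the 4 quartiles were 11, 15, 28 and 23, against 35, 57, 63 and 92 as deposited, so the share no longer rose into the longest quartile. The medians of the longest and shortest quartiles were then -0.06 and 0.04, and those of the middle quartiles, both -0.03 as deposited, became 0.01 and 0.02. At 30 min the longest quartile again had a median of -0.14, and in snf1 at 15 min -0.09. The SRB4 gap between 3′ and 5′ signal was also larger at 15 min (3.51 and 3.72 against 2.83 and 2.98), and its part in this was not tested.

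The same dose and time in the snf1 strain, whose arrays are not shared with WT, gave 531 calls (9.87% of those tested), 205 higher (3.81%) and 326 lower (6.06%). This split depended on the scaling: 277 were higher and 254 lower after quantile normalization, against 208 and 309 after median centring. Of the 318 WT genes, 101 were called in the same direction in snf1 (31.8%), which is 19.0% of the snf1 calls, and 4 in the opposite direction. The sign was shared by 55 of the 71 higher genes and 205 of the 247 lower, where 45.1% of all tested probe sets had a positive change in snf1 and 54.9% a negative one. The median change in snf1 was 0.32 for the genes higher in WT and -0.40 for those lower. YGR035C rose as far in snf1, from 8.98 and 9.08 to 12.11 and 12.15 (3.10 ± 0.46, adjusted p = 1.04e-04), and the difference from WT was 0.03 (adjusted p = 0.999). The changes of WSC4, GAC1 and ISF1 in snf1 were -2.77 ± 0.43, -3.40 ± 0.47 and -3.32 ± 0.61 (adjusted p = 1.64e-04, 4.61e-05 and 8.58e-04). PCL1 rose by 3.21 ± 0.38 (adjusted p = 7.93e-06) and MPC3, a mitochondrial pyruvate carrier gene, by 2.21 ± 0.32 (adjusted p = 9.68e-05).

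In the mig3 strain, with 1 array at 15 min, 40 probe sets were called (0.743%). The sign of the WT change was shared by 67 of the 71 higher genes and 243 of the 247 lower, where 49.5% of all tested probe sets had a positive change in mig3 and 50.5% a negative one, and 34 of the 318 were called. The median changes were 0.69 and -0.59. TPO4 went from 10.44 and 9.92 to 12.45, BAG7 from 9.39 and 8.84 to 11.67 and FMP48 from 7.81 and 7.12 to 10.22. In these 3 genes the irradiated array stood above both unirradiated ones, and they were called (adjusted p = 8.19e-05, 0.00835 and 0.00168). PCL1 did not share its rise there, with 7.93 and 8.92 unirradiated and 7.80 at 15 min (change -0.62, adjusted p = 0.769).

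The difference between the snf1 and WT responses was called for 100 probe sets (1.86% of those tested), higher in snf1 for 76 (1.41%) and lower for 24 (0.446%), 36 of them among the 318. In 33 of the 36 the difference ran against the WT change, which is counted here as a smaller response in snf1, and in 3 along with it. The 33 include genes that moved the other way in snf1, such as FMP48, and YKR041W, which was at background there. In TPO4, BAG7, FMP48 and ROD1 the unirradiated snf1 cells already stood above irradiated WT. TPO4 read 14.62 and 14.47 in unirradiated snf1 and 14.44 and 14.43 at 15 min, where WT reached 13.35 ± 0.08 (SD, n = 2). BAG7 read 13.47 and 13.39, then 13.46 and 13.58, where WT reached 11.69 ± 0.19. CDC5 mirrored this on the low side, with 9.72 and 9.58 in unirradiated snf1 and 9.71 and 9.50 at 15 min, where WT had fallen to 10.55 on both arrays. ACM1 read 8.82 and 8.85 in unirradiated snf1 and 8.73 and 8.76 at 15 min, where WT had fallen to 8.91 ± 0.13. Of the 33 genes with a smaller response, the unirradiated level in snf1 was displaced from that of WT in the direction of the WT change in 32 (97%), and lay past the 15 min WT level in 31. Among all 318 it was so displaced in 258 (81.1%), among the 282 without a called difference in 226 (80.1%), and past the 15 min WT level in 134 of the 318. The unirradiated levels of both strains enter the difference itself, so a smaller response and a displaced start are not independent measures.

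**Figure D5:**
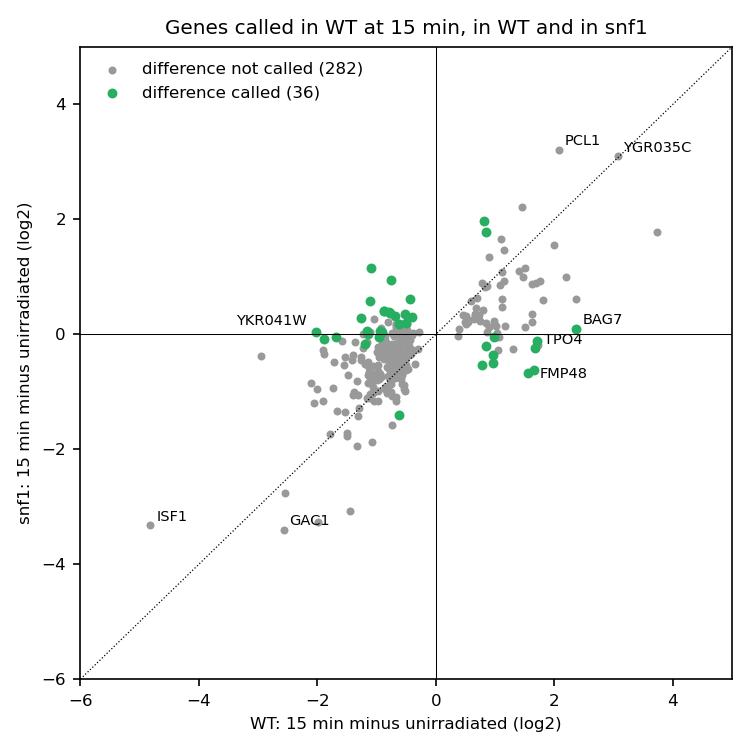
Change at 15 min after UV in log2 units for the 318 genes called in WT, in WT (horizontal axis) and in snf1 (vertical axis). Green points are the 36 genes whose responses differ between the strains at an adjusted p under 0.05, grey points the other 282, and the dotted line marks equal change. YGR035C lies on the line, while TPO4, BAG7 and FMP48 lie near 0 or below it in snf1.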

How the data were processed

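Values for 41 Affymetrix Yeast 2.0 arrays in 21 groups were used as the authors deposited them, on the log2 scale. Per the submitters' processing notes they were made with GCRMA 2.10.0 in R 2.6.2. GCRMA corrects background by probe sequence and normalizes the arrays to a shared distribution, so a change is relative to the whole array. Groups came from the sample titles. They include times and strains not described here, such as strains lacking RAD23, RAD4 or both SNF1 and RAD23, which enter only the estimate of spread. Of 10928 probe sets, 5498 matched a budding yeast gene of the R64 gene table and 5380 were tested (at least 4 on at least 2 arrays). A group mean under 2.39 was taken as background. Limma 3.58.1 in R 4.3.3 fitted 1 mean per group to all arrays (20 residual and 2.86 prior degrees of freedom), with Benjamini-Hochberg adjustment over all tested probe sets and calls at an adjusted p under 0.05. The spread of the lone irradiated mig3 array was taken from the other groups. The fit was tested on simulated data with independent noise on each array. Same-numbered WT arrays deviate together in the real data, so that test does not cover such sharing.

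The genes, the 37 gene lists and the tests were chosen with earlier results of these data known. The result of 1 list is not reported here. Genes named were, among those called, the 15 that rose most and the 15 that fell most, up to 4 genes of each list, all of the ribonucleotide reductase, Snf1 and Mig, and G1 cyclin lists, 6 returns and 6 further moves, and 8 genes also called in snf1 and moving the same way in mig3. The text gives those whose values it rests on. The replicates are called biological, but separate cultures are not stated beyond that. The p-values therefore measure the spread between arrays of the same group, pooled for each gene over all groups. Most of these groups are not WT. Alternatives were other filters, scalings, priors, array weights, fewer arrays, fits blocked on the replicate number and fits without each single array.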

Additional observations from a re-analysis of the deposited data

Results flagged for a closer look

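The responses of 13 named genes at 15 min differed between snf1 and WT, by limma's test of the difference (Benjamini-Hochberg adjustment over all tested probe sets). The values are the change in snf1 minus that in WT ± SE, with 2 arrays in each of the 4 groups. The genes that rose in WT and had lower changes in snf1 were BAG7 (-2.28 ± 0.55, adjusted p = 0.0309), FMP48 (-2.27 ± 0.49, adjusted p = 0.0152), ROD1 (-1.90 ± 0.38, adjusted p = 0.00941), TPO4 (-1.82 ± 0.31, adjusted p = 0.00192) and TOS3 (-1.04 ± 0.24, adjusted p = 0.0198). YHP1 rose in both strains and by more in snf1 (1.17 ± 0.30, adjusted p = 0.0443). The genes that fell in WT and had no called fall in snf1 were ACM1 (1.81 ± 0.36, adjusted p = 0.00941), CLB5 (1.21 ± 0.26, adjusted p = 0.0129), CDC45 (1.16 ± 0.24, adjusted p = 0.0106), FAR1 (1.15 ± 0.23, adjusted p = 0.00941), PDR12 (1.14 ± 0.29, adjusted p = 0.0413) and CDC5 (0.91 ± 0.18, adjusted p = 0.00941). YKR041W differed by 2.07 ± 0.26 (adjusted p = 7.1e-05), but it was at background on all snf1 arrays and could not fall there.

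The unirradiated level of FMP48 was 11.52 and 11.51 in snf1 against 8.94 ± 0.30 (SD, n = 2) in WT, that of ROD1 9.24 and 9.10 against 6.73 ± 0.21, and that of TOS3 11.02 and 11.04 against 8.41 ± 0.19. For CDC5 it was 9.72 and 9.58 against 11.50 ± 0.01 and for FAR1 9.14 and 9.22 against 11.34 ± 0.13. PDR12 started level, at 12.78 and 12.57 in snf1 against 12.62 ± 0.16 in WT, and stayed at 12.68 and 12.69 in irradiated snf1 while WT reached 11.49 ± 0.24. Of the 13 differences, those of TPO4 and YKR041W were called without each of the 8 arrays in turn. The other 11 each lost the call without at least 1 of them. For ACM1 this was unirradiated WT replicate 2 (adjusted p = 0.0514).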

How the results depend on the processing

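No named gene called at 15 min changed direction under any alternative, and of 75 such genes 25 held their call without each of the 4 arrays. A filter on fission yeast background, no filter and an intensity trend with a robust prior kept every count within 1.5 times its value. Among the 318 genes the call held in 145 after quantile normalization, 220 after median centring, 102 with only the arrays of the contrast, 24 with WT arrays only and 317 with array weights. The count of 318 was 157 with quantile normalization, 716 with array weights, 29 with WT arrays only, 148 with the arrays of the contrast and 82 to 190 without 1 array. The 1353 calls at 30 min were 2416 with array weights, 705 with WT arrays only and 691 to 985 without 1 array. The 552 steps from 15 to 30 min were 1844, 148 and, with the arrays of the contrast, 973, or 181 to 272 without 1 array. The 531 snf1 calls were 2755 with array weights, 2229 with the contrast's arrays and 190 to 210 without 1 array. The 40 mig3 calls were 414 with array weights, 11 to 21 without 1 array and 0 with the contrast's 3 arrays in limma, where 782 had an unadjusted p under 0.05 against 563 in the full fit. The 100 differences were 661, 516 and 33 to 68. The 213 persisting calls were 117 with quantile normalization, 511 with array weights, 23 with WT arrays only, 382 with the 6 WT arrays of the 3 times and 57 to 168 without 1 array. The 60 called genes in lists were 33 with quantile normalization, 132 with array weights, 8 with WT arrays only, 33 with the contrast's arrays and 18 to 39 without 1 array. The causes were not tested, except that the fits on fewer arrays have fewer degrees of freedom.

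The labels give replicate numbers but no statement that a number pairs arrays. Deviations of same-numbered WT arrays correlated at 0.71 between unirradiated and 15 min, 0.5 between unirradiated and 30 min and 0.52 between 15 and 30 min, over 5380 probe sets. With a replicate block the counts were 415 at 15 min (96 higher and 319 lower), 1567 at 30 min, 614 for the step, 601 in snf1, 44 in mig3 and 138 differences, and 308 of the 318 kept their call. WT changes called at 15 min and again at 30 min were then 276. Precision is limited by 2 arrays a group, and probe sets near background give limits.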

Other observations

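Genes outside the lists also kept their call at 15 min without each of the 4 arrays; those given here were chosen after their values were seen. Among the falls were CDC39, which encodes the scaffold of the Ccr4-Not deadenylase complex (11.42 and 11.25 unirradiated, 10.17 and 9.89 at 15 min, 9.59 and 9.31 at 30 min), and SSN3, the Mediator kinase gene (10.14 and 10.16, then 9.15 and 9.26, then 8.89 and 8.95). Their changes at 15 min were -1.31 ± 0.21 and -0.95 ± 0.14 (adjusted p = 6.76e-04 and 2.0e-04 in limma), and in both each later pair lay below the earlier ones. SOH1, a gene of another Mediator subunit, rose by 0.89 ± 0.17 (adjusted p = 0.00288). SFG1, a regulator of superficial pseudohyphal growth, went from 9.73 and 9.97 to 8.22 and 8.12 and then to 7.66 and 7.46, a fall at 15 min of 1.68 ± 0.22 (adjusted p = 1.11e-04).

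Other falls chosen in the same way include SPC42, INN1, SPC34, SAE2 and TRF5. SPC42, a core gene of the spindle pole body, read a mean of 9.06 ± 0.09 (SD, n = 2), then 7.55 and 8.03, then 8.55 and 8.57, a fall at 15 min of 1.27 ± 0.19 (adjusted p = 2.85e-04). INN1, which acts in septum formation, fell by 0.67 ± 0.09 (adjusted p = 1.38e-04), and SPC34, of the kinetochore DASH complex, by 0.63 ± 0.12 (adjusted p = 0.00281). SAE2, an end-resection gene, went from 5.24 ± 0.04 to 4.02 ± 0.03 (SD, n = 2 each), a fall of 1.23 ± 0.25 (adjusted p = 0.00379) whose call ended after quantile normalization (adjusted p = 0.0965), as did that of SPC34 (adjusted p = 0.0529). TRF5, which encodes a nuclear poly(A) polymerase of RNA surveillance, dipped from 9.41 and 9.65 to 8.57 and 8.72 and was at 9.66 and 10.08 by 30 min. IPT1, a sphingolipid synthesis gene, went from 11.76 and 11.54 to 12.85 and 12.68 and then to 12.17 and 12.13.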
